A study of Mus musculus with 9 samples.

Results

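The mammary sarcoma MS1156.1 was the only non-epithelial tumour among 9 BlgCre-NeuKI tumours profiled by RNAseq. It was set against the other 8, which were diagnosed as epithelial. The members were taken from the tumour diagnosis in the sample labels, so 1 of 9 tumours was the sarcoma and no measured value decided membership. The comparison itself was chosen with earlier results of these data known. The epithelial tumours were 6 adenocarcinomas of no special type, AC(NST), and 2 metaplastic adenosquamous carcinomas (ASQC). All 9 came from heterozygous BlgCre-NeuKI mice on a mixed FVB/C57Bl6 background. In the NeuKI allele NeuNT, an activated form of the rat orthologue of Erbb2, sits in the endogenous Erbb2 locus behind a loxP-flanked stop cassette. BlgCre is a CRE transgene driven by the beta-lactoglobulin promoter, and in the mammary gland it acts mainly in luminal oestrogen receptor-negative cells. The sarcoma came from a parous mouse and its Erbb2/Neu locus was classed as non/low amplification. The 2 ASQC tumours and the AC(NST) MS1166.1 shared both of these labels. The remaining 5 AC(NST)s were high-amplified, of which MS1213.1 and the pair MS1163.1 and MS1163.2 came from virgin animals, and the other 2 (MS1155.3, MS1218.2) from parous ones. No treatment was given, and ages were not given in the labels. MS1163.1 and MS1163.2 carry the same mouse number, although the design names a separate mouse for each tumour.

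A sarcoma is a malignant tumour whose cells resemble connective or other mesenchymal tissue, whereas a carcinoma keeps epithelial features such as adherens junctions, tight junctions, desmosomes and keratin filaments. The transcription factors of the ZEB, SNAIL and TWIST families repress epithelial genes in epithelial-mesenchymal transition (EMT), and ZEB and SNAIL proteins bind E-box motifs. In the mammary gland, GATA3, ELF5 and TFAP2C are transcription factors of the luminal lineage, and ERBB3 is one of the dimer partners of ERBB2.

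With 1 sarcoma library there was no spread within its group, and no group test was made. The sarcoma was one tumour from one animal, so every statement describes this tumour and not sarcomas of the model in general. Read counts per gene were divided by a size factor for each tumour and are given as normalized counts. A gene was called above or below where the sarcoma was at least 2-fold outside the range of all 8 epithelial tumours, after 1 was added to each normalized count. Fold differences are ratios of normalized counts to the nearest epithelial tumour. The gene lists were chosen with earlier results of these data known, so shares of list genes are descriptions and not tests. Intervals given for the sarcoma are exact 95% Poisson intervals and cover counting error only. The sarcoma library held 13058738 counts, within the range of 12501225 to 23912429 over the 9 tumours. Among the epithelial tumours MS1218.2 stood apart for stromal genes: it was the exception to the high tumour purity estimated in the methods of the study, and it was the nearest tumour for 448 of the genes called above. As all samples were pieces of whole tumour, a smaller number of cells of a type cannot be told apart from less RNA per cell.

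The sarcoma profile lay well away from those of the epithelial tumours. Of 15551 genes with at least 10 counts in 1 or more tumours, 1501 (9.65%) were above all epithelial tumours and 1082 (6.96%) were below all of them. The sarcoma was 16-fold or more above for 272 of these genes and 16-fold or more below for 217. When each epithelial tumour was compared in the same way with the other 7, between 107 (MS1163.1) and 725 (MS1218.2) genes were above and between 77 (MS1349.1) and 1061 (MS1166.1) were below. The count of genes above was thus more than that of any epithelial tumour, whereas the count below was close to that of MS1166.1. At least 10 counts were found in the sarcoma alone for 306 genes, and 364 genes reached 10 counts in all 8 epithelial tumours but not in the sarcoma. The 306 genes passed the filter only through the sarcoma. Where at least 3 of the 8 epithelial tumours had to reach 10 counts, 1022 genes were above and 1058 were below. The larger number above than below thus depended on the filter. Across the 15551 genes, the Pearson correlation of log2 normalized counts of the sarcoma with an epithelial tumour was between 0.666 (MS1349.1) and 0.780 (MS1163.2). The 28 pairs of epithelial tumours gave 0.8597 to 0.948. Genes are not independent replicates, and all the tumours were scaled together. At the edge of the rule, Ccdc28b was just inside it, with 398 normalized counts against an epithelial maximum of 198, and Timp2 was just outside it, with 13699 against 6852. On the lower side Pex11g was just inside the rule, with 58.6 normalized counts against a minimum of 118, and Gmds was just outside it, with 237 against 474.

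**Figure D1:**
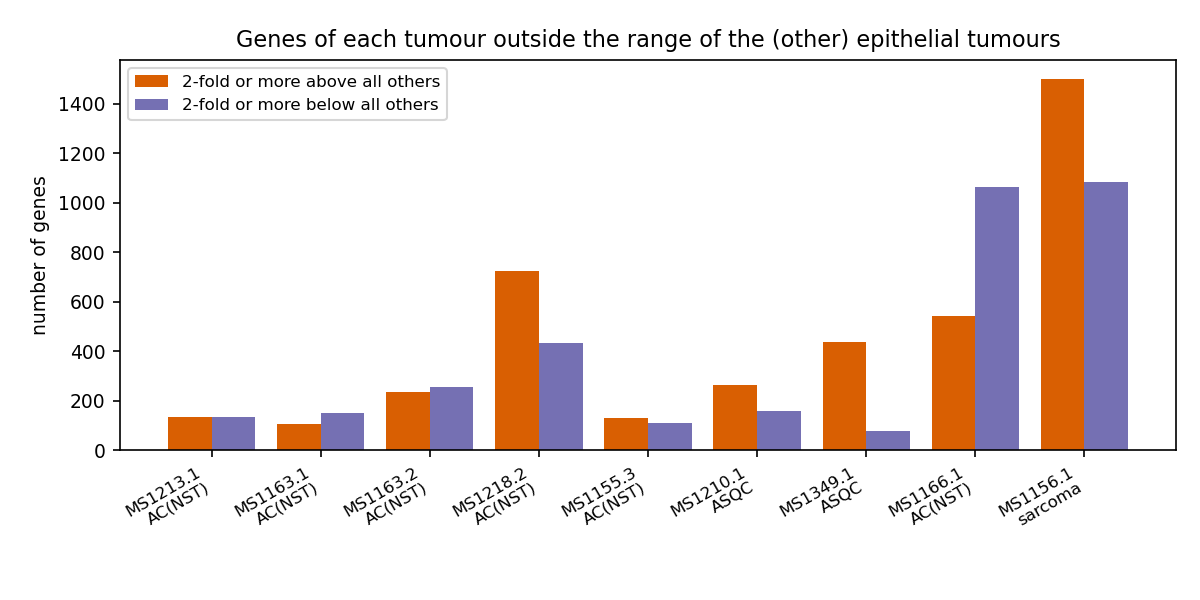
Number of genes (y axis) that were 2-fold or more above (orange) or below (purple) all other epithelial tumours, for each tumour along the x axis. The sarcoma MS1156.1 was compared with 8 tumours and each epithelial tumour with 7, and its 1501 genes above are the most in any tumour, while MS1166.1 has nearly as many genes below (1061 against 1082).

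The label was first checked with Epcam, Cdh1 and Vim. Epcam (ENSMUSG00000045394, chr17:87635979-87651129, GRCm38), an epithelial adhesion molecule, had 51.8 normalized counts in the sarcoma (interval 36.6 to 71.0). In the 8 epithelial tumours it ranged from 6944 to 15292, with a median of 8529.9, so that the sarcoma was 134-fold below the lowest. Cdh1 (ENSMUSG00000000303, chr8:106603351-106670246), which encodes E-cadherin of the adherens junctions, had 77.6 normalized counts in the sarcoma (interval 58.8 to 101). The epithelial tumours had 6627 to 15240, median 8722, which left the sarcoma 85.4-fold below the lowest. Both genes therefore fitted the label. Vim (ENSMUSG00000026728, chr2:13573927-13582826), an intermediate filament of mesenchymal cells, did not separate the tumours. The sarcoma had 14229.9 normalized counts of Vim, above 7 of the epithelial tumours, which ranged from 2568 to 7215, but below MS1218.2, which had 31328.

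Almost the whole set of epithelial junction genes was low in the sarcoma. Of 33 genes for adherens junctions, tight junctions, desmosomes, hemidesmosomes and epithelial polarity, 31 were below all epithelial tumours, beside 6.96% of all genes, and none was above. The median log2 ratio of the sarcoma to the epithelial median over the list was -6.38. In the epithelial tumours the same median ran from -0.51 to 0.78, and over all genes past the filter the sarcoma's median was 0. Among the claudins of the tight junctions, Cldn3 had 19.1 normalized counts in the sarcoma against 2851 to 11636, a 150-fold difference from the lowest tumour. Cldn7 had 6.81 against 1194 to 4277, a 175-fold difference. For Ocln, another tight junction protein, the values were 6.81 and 667 to 3094. With 14, 5 and 5 counts, these 3 genes were close to the limit of detection in the sarcoma. The desmosomal plaque genes were lower to unequal degrees. Dsp (desmoplakin) had 121 normalized counts in the sarcoma against 4860.2 to 24874. Jup (plakoglobin), which also has a place in adherens junctions, kept 1094 against 3406 to 19219, only 3.11-fold below the lowest. The 2 genes inside the epithelial range both belong to hemidesmosomes and their ligands. Itgb4, the integrin subunit of hemidesmosomes, had 4234 normalized counts (epithelial 1803 to 14726), and Lama3, a chain of laminin-332, had 116 (90.5 to 1888). Lamb3, a partner chain in the same laminin, was below, with 27.2 normalized counts in the sarcoma.

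Because ZEB and SNAIL factors bind the E-box CAGGTG, the promoters of the junction genes are shown with this motif marked. RefSeq promoter windows (GRCm38.p6, 250 bases before to 50 after each start) were matched for 16 of the 33 junction genes. In 14 of these 16 genes (87.5%) a window held CAGGTG or its complement CACCTG, which together are one motif read on both strands. The motif was present for 22.6% of 27025 genes with a promoter window and for 21.9% of those past the filter. For the list of epithelial transcription and splicing factors it was present in 4 of 11 genes (36.4%). AACCGGTT, searched as the palindrome bound by GRHL factors, was in none of the windows of the 2 lists and in those of 0.174% of all genes. The promoter sequences are the reference and were not read from these tumours, so a match is a description and not a bound site. The 250 bases before the start of 4 junction genes that were below in the sarcoma are printed 5′ to 3′ on the strand of the gene, with CAGGTG and CACCTG in capitals. They are Ap1m2 (clathrin adaptor of epithelial sorting, chr9:21312334-21312583, minus strand), Crb3 (polarity, chr17:57061981-57062230, plus strand), Epcam (chr17:87635729-87635978, plus strand) and Lsr (tricellular junctions, chr7:30973470-30973719, minus strand).
Ap1m2: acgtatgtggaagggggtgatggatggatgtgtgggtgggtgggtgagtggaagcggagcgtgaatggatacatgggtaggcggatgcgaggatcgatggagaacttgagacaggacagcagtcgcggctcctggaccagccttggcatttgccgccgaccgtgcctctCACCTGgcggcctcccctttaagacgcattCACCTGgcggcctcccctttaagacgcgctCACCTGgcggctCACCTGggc
Crb3: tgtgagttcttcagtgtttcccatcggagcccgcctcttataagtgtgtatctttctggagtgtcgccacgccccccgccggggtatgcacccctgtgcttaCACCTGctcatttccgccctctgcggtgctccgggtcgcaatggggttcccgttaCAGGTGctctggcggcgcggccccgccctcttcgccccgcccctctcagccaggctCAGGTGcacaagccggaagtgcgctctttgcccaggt
Epcam: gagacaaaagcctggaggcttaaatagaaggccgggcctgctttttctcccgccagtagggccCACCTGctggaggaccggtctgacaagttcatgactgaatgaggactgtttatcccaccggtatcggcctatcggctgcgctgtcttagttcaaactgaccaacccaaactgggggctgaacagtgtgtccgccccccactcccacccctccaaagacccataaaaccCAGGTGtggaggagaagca
Lsr: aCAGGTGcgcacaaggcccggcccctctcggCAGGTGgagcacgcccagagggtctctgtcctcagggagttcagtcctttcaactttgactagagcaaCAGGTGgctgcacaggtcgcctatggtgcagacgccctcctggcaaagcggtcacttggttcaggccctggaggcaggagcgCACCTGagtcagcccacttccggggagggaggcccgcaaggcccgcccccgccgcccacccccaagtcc
In the 250 bases printed, Ap1m2 and Lsr each hold 4 copies, Crb3 holds 3 and Epcam holds 2. In the full windows Ap1m2, Crb3 and Lsr had the most copies of the junction genes, 4 each, and are not typical of the list. No other junction gene had more than 2 in a window, and Cgn and Jup had none. Ap1m2, Crb3 and Lsr had 13.6, 10.9 and 23.2 normalized counts in the sarcoma, where the lowest epithelial tumours had 901, 208 and 1198.

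Keratins were low as well, although several were also low in single epithelial tumours. Of 14 keratin genes, 7 were below all 8 epithelial tumours, none was above, and the list median was -5.46. Krt8 and Krt18, the paired keratins of simple and luminal epithelium, had 172 and 131 normalized counts in the sarcoma. Their epithelial ranges were 7677 to 36530 and 4064 to 30953, so the sarcoma was 44.7-fold and 31.1-fold below the lowest tumour. Krt7 was lower still, with 6.81 normalized counts against 1701 to 16083, or 250-fold. The basal keratin Krt14 had 10.9 normalized counts in the sarcoma, but it was not outside the range because MS1163.1 had 7.12. Against the 3 parous, non/low-amplified epithelial tumours alone, 13 of the 14 keratins were below, where 15.9% of all genes were.

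The transcription factors of the epithelial state were divided. In a list of 21 epithelial transcription and splicing factors, 13 were below all epithelial tumours and none was 2-fold above, with a list median of -5.10. Tfap2c had no count in the sarcoma and 684 to 4277 normalized counts (median 2145) in the epithelial tumours, so that it was at least 167-fold lower when the sarcoma is set at 3 counts. Gata3 had 5.45 normalized counts against 614 to 2885, and Elf5 had 12.3 against 2155 to 9990.2. All 3 luminal factors were therefore at or near the limit of detection. The ETS factor Ehf had 70.8 normalized counts against 4098 to 19085, and Grhl2, an activator of junction genes, had 36.8 against 1184 to 4249. The splicing regulators Esrp1 and Esrp2, which set epithelial isoforms, had 25.9 and 17.7 normalized counts, 78.04-fold and 50.8-fold below the lowest epithelial tumour. Not all epithelial factors were low. Klf5 (469 normalized counts against 155 to 820) was inside the epithelial range. Sox10, which marks both mammary progenitors and the neural crest, had 7923 in the sarcoma against a maximum of 6441 in MS1218.2, a 1.23-fold difference.

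Epithelial surface proteases and mammary secretory genes followed the junction genes. Of 10 membrane proteases and their inhibitors, 7 were below (list median -5.44). St14, which encodes matriptase, had 88.5 normalized counts against 2956 to 7452, and its inhibitor Spint1 had 10.9 against 1379 to 4106. Of 20 milk and luminal genes, 10 were below and none was above (list median -4.05). The sarcoma had 51.8 normalized counts of the casein gene Csn3 (epithelial 1475 to 113694) and 23.2 of Prlr, the prolactin receptor (740 to 6367). The other caseins were too variable among the epithelial tumours to place the sarcoma outside them. Csn2, for example, ranged from 12.2 to 409646 normalized counts in the epithelial tumours and had 39.5 in the sarcoma. Of the steroid receptors, Esr1 (230 normalized counts) and Pgr (139) were inside the epithelial range.

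**Figure D2:**
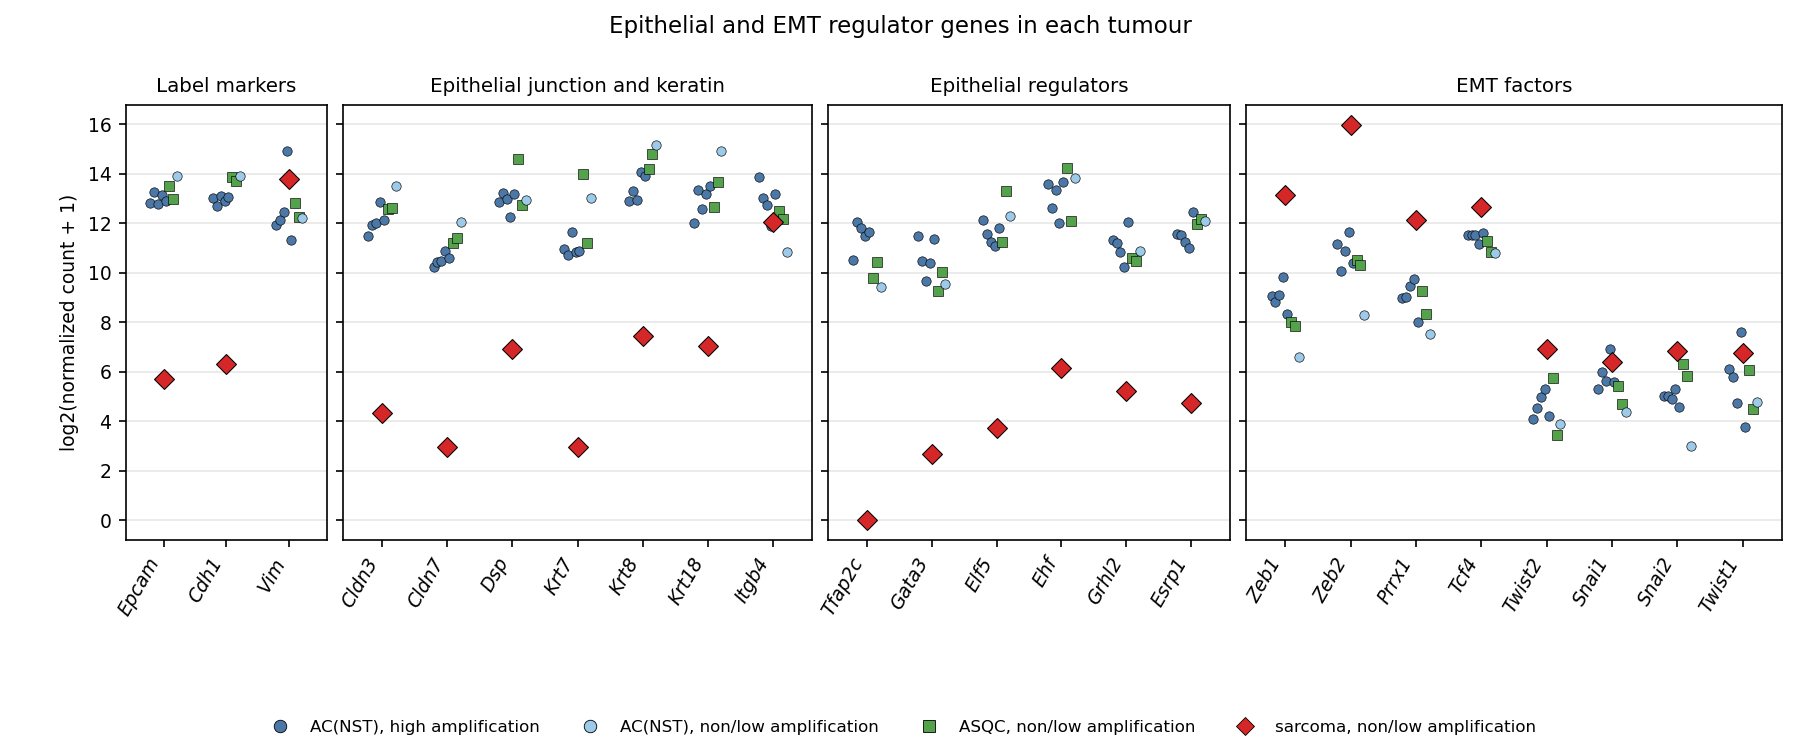
Normalized counts on a log2 scale (1 added; y axis) of label markers, epithelial genes and EMT factors (x axis), with one point per tumour and the sarcoma as a red diamond. Epcam, Cdh1 and the epithelial regulators lie 5 or more log2 units lower in the sarcoma than the epithelial median, Zeb1 and Zeb2 lie above every epithelial tumour, and Vim, Itgb4, Snai1 and Twist1 lie inside the epithelial range.

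The EMT transcription factors were not raised alike. Of 9 measured, 5 were above all epithelial tumours and none was below, with a list median of 1.84 (epithelial tumours -1.39 to 1.23). Zeb2 (ENSMUSG00000026872, chr2:44983632-45117395) had 64435 normalized counts in the sarcoma (interval 63856 to 65018). The epithelial tumours had 312 to 3182, median 1413, and the sarcoma was 20.3-fold above the highest, MS1218.2. Zeb1 had 9012 normalized counts against 96.3 to 902, a ratio of 9.996. Prrx1 had 4508 normalized counts against a maximum of 862, Tcf4 had 6471 against 3126 (less than 2-fold above when scaled by total counts) and Twist2 had 120 against 52.6. Snai2 was above by less than 2-fold, with 114 against 79.3. Snai1 (83.1 normalized counts), Twist1 (108) and Prrx2 (83.1) were inside the epithelial range.

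Mesenchymal genes were above for a minority of a list of 30, since MS1218.2 often had values of the same order. Of these genes 8 were above, 1 was below and 21 were neither, and the list median of 1.56 was inside the range of the epithelial tumours (-0.94 to 1.81). The small proteoglycans Dcn (decorin) and Lum (lumican) had 23775 and 6942 normalized counts against maxima of 3041 and 959. Cdh2 (N-cadherin) had 1139 normalized counts against a maximum of 186, and Cdh11 had 6319.6 against 1848. Postn, a secreted matrix protein, had 66474 against 24231, which was less than 2-fold above when size factors were taken within classes of exon length, a scaling added after the values were seen. Genes of the matrix and of mesenchymal adhesion thus lay 2.74-fold to 7.82-fold above the highest epithelial tumour in these examples. Fn1, Fbn1, Tnc, Pdgfrb and Thy1 were inside the range. Nt5e, the ectonucleotidase CD73, was the 1 gene below, with 102 normalized counts against a minimum of 542. The hyaluronan receptor gene Cd44 was below by less than 2-fold, with 3168 against a minimum of 4745.

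Of 29 collagen genes, 12 (41.4%) were above and 2 (6.90%) were below, beside 9.65% and 6.96% of all genes. The share below was thus near that of all genes. The list median was 2.31 (epithelial tumours -1.62 to 2.10). Collagen counts summed to 1086040 normalized counts in the sarcoma against 79377 to 601795 in the epithelial tumours, where the highest was MS1218.2. Col3a1, a fibrillar collagen, had 261996 against a maximum of 118117 in MS1218.2, 2.22-fold, and 46349.5 in the next tumour. Its distance to MS1218.2 was 1.15 on the log2 scale and fell short of the 2-fold rule with TMM scaling (0.98) and with factors within classes of exon length (0.44), as did that of Col4a1 with the latter (0.59). Col5a2 and Col6a2 also fell short with the latter, and Col5a1 and Col6a3 fell short with every other scaling tried. The type I chains Col1a1 and Col1a2 had 124688 and 170270 normalized counts, where MS1218.2 had 134522 and 101624, so neither was called above. Basement membrane collagens were among those above, with Col4a1 at 112494 (45912 in MS1218.2 and 13953 in the next), Col15a1 at 33193 (9275) and Col18a1 at 38288 (10408). Col27a1 had the widest distance of the list, at 9715 against 1104 in MS1155.3, or 8.80-fold. Col9a1, a cartilage collagen, and Col13a1 were below, with 2.72 and 8.17 normalized counts. Of 28 matrix proteases and inhibitors, 8 were above and 3 were below. Adamts1 had 24373 normalized counts against 3279, and Mmp16 had 3684 against 673. The genes below were Mmp10, Mmp12 and Mmp13, for which 0, 3 and 1 counts were seen in the sarcoma. None of 18 endothelial, 15 macrophage or 14 smooth muscle genes was called above, with MS1218.2 again setting the upper edge of their sums. The smooth muscle list summed to 20344 normalized counts in the sarcoma, 37610 in MS1218.2 and 10727 to 18413 in the other 7 tumours, and 5 of its 14 genes were above at any distance. The part of other stromal cells in the collagen values was not tested.

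Genes of Schwann cells and the neural crest were the second group to lie far from the epithelial range. Of 11 genes past the filter in this list, 10 were above all epithelial tumours and none was below, beside 9.65% of all genes, and the list median was 5.74 (epithelial tumours -1.08 to 1.44). Foxd3 (ENSMUSG00000067261, chr4:99656299-99658622), a transcription factor of the neural crest, had 2379 normalized counts in the sarcoma (interval 2269 to 2494). It had 0 to 4.45 in the epithelial tumours, with a median of 0, a difference of 535-fold from the highest. Cdh19, a cadherin of Schwann cell precursors, had 23998 against 4.64 to 3135. Foxd3 was thus at or near 0 in every epithelial tumour, and it passed the filter only through the sarcoma. Cdh19 was high in the 5 high-amplified tumours (734 to 3135) and low in the 3 with non/low amplification (4.64 to 35.6), whose label the sarcoma shared. The adhesion molecules Ncam1 and L1cam had 19426 and 13865 normalized counts, 22.0-fold and 25.05-fold above the highest epithelial tumour. The glial filament gene Gfap had 1031 against a maximum of 29.4. Among further members S100b (3811 against 1053), Ngfr (1596 against 264), Pmp22 (10246 against 1459) and Mbp (14453 against 1649) were above.

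A second list of 31 measured Schwann cell and glial genes was drawn up after the values had been seen, so its counts only describe the sarcoma. Neither list is independent evidence, since the first was chosen with earlier results of these data known. In this list 21 genes were above and 1 was below, beside 9.65% and 6.96% of all genes. Some, such as Gjc3, passed the filter only through the sarcoma. The potassium channel gene Kcna1 (ENSMUSG00000047976, chr6:126640397-126646384) was the gene farthest above the epithelial range of all genes ranked. It had 74165 normalized counts in the sarcoma (interval 73544 to 74791) and 0 to 16.02 (median 5.47) in the epithelial tumours, a ratio of 4630 to the highest. Its relative Kcna2 had 21785 against a maximum of 12.46. The Schwann cell connexin gene Gjc3 had 10659 against 4.86, and Lgi4, a secreted factor of Schwann cell myelination, had 22429 against 176. Col28a1, a collagen of peripheral nerve, had 16186 against 113, and Col20a1 had 75737 against 255. The transcription factor genes Sox2 and Pou3f1 had 410.0 and 1965 normalized counts against maxima of 15.0 and 24.6. Genes of the late myelin programme were not all raised. Mag, a myelin adhesion molecule, and Egr2, a transcription factor of myelination, were inside the epithelial range, and Ugt8a, an enzyme of myelin lipid synthesis, was below with 3 counts in the sarcoma. Of 5 neuronal genes past the filter none was above, and this list summed to 21.8 normalized counts in the sarcoma against 13.8 to 80.1 in the epithelial tumours. The melanocyte list, another lineage of the neural crest, gave 2 above of 4. Mitf had 936 normalized counts against 230 to 395 and Dct had 92.6 against 0 to 2.43, while Mlana had no count in the sarcoma.

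Skeletal muscle fibre genes were high in the sarcoma, and this group moved with a single epithelial tumour too. All 13 fibre genes past the filter were above, with a list median of 9.43 (epithelial tumours -1.03 to 6.11). Ttn (ENSMUSG00000051747, chr2:76703980-76982547), the giant sarcomere protein, had 172824 normalized counts in the sarcoma against 58.1 to 23096 (median 183). Myh1, a fast myosin heavy chain, had 34132 against 1.37 to 689, and Ckm, the muscle creatine kinase, had 4549 against 0.683 to 352. In each case the highest epithelial tumour was MS1163.2, from a virgin mouse. Without MS1163.2 the highest values were 418, 20.9 and 69.6 normalized counts. The fibre list summed to 260412 normalized counts in the sarcoma, 29691 in MS1163.2 and 216 to 1095 in the other 7 tumours. Of 11 muscle regulators and developmental muscle genes past the filter, 7 were above and none was below (list median 4.51), but the regulators of early myogenesis were near the limit of detection. Myod1 had 4 counts in the sarcoma and did not pass the filter, Myog had 10.9 normalized counts against a maximum of 21.9, Pax7 had 1.36, and Myf5 had 2.72. Myf6, the regulator that persists in adult fibres, had 125 against 30.4, and Pax3, of muscle precursors and neural crest, had 417 against 6.96. Muscle fibres next to the tumour and muscle genes within tumour cells cannot be told apart in these libraries.

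The genes farthest above the epithelial range also included secreted proteins of exocrine glands. By rank the 20 genes farthest above were Kcna1, Spt1, Scgb1b2, Gm5938, Obp1a, Ajap1, Gm1553, Gjc3, Esp15, Kcna2, Gpr17, Scgb2b24, Scgb2b2, Prima1, Obp1b, Lcn11, Gm14743, Gpr37l1, Pex5l and Clvs1. Spt1, a salivary protein, had 35819 normalized counts in the sarcoma and at most 9.28 in an epithelial tumour. Obp1a, an odorant-binding lipocalin of glands, had 26849 against 10.4, and the secretoglobin gene Scgb2b2 had 10149.5 against 6.96. In all 3 the highest epithelial tumour was MS1166.1. Esp15 and Lcn11 had no count in any epithelial tumour. With 3 counts in the tumour of the smallest size factor as the floor, the sarcoma was at least 450.4-fold higher for Esp15 (1698 normalized counts) and at least 196-fold higher for Lcn11 (738). Several of these genes, including the Scgb, Obp and Gm genes, have close relatives of nearly the same sequence, which makes their counts uncertain. In a list of 22 measured secreted gland proteins, put together after the ranking was seen, 15 were above and 2 were below, beside 9.65% and 6.96% of all genes. Genes such as Esp15 and Lcn11 passed the filter only through the sarcoma, where they were high. The share above was therefore partly fixed by the filter and by the choice of the list. The genes below were Ltf and Aqp5, both abundant in most of the mammary tumours. The salivary genes Prol1, Smr3a and Dcpp1 had no count in the sarcoma. The part of gland tissue in these values was not tested.

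**Figure D3:**
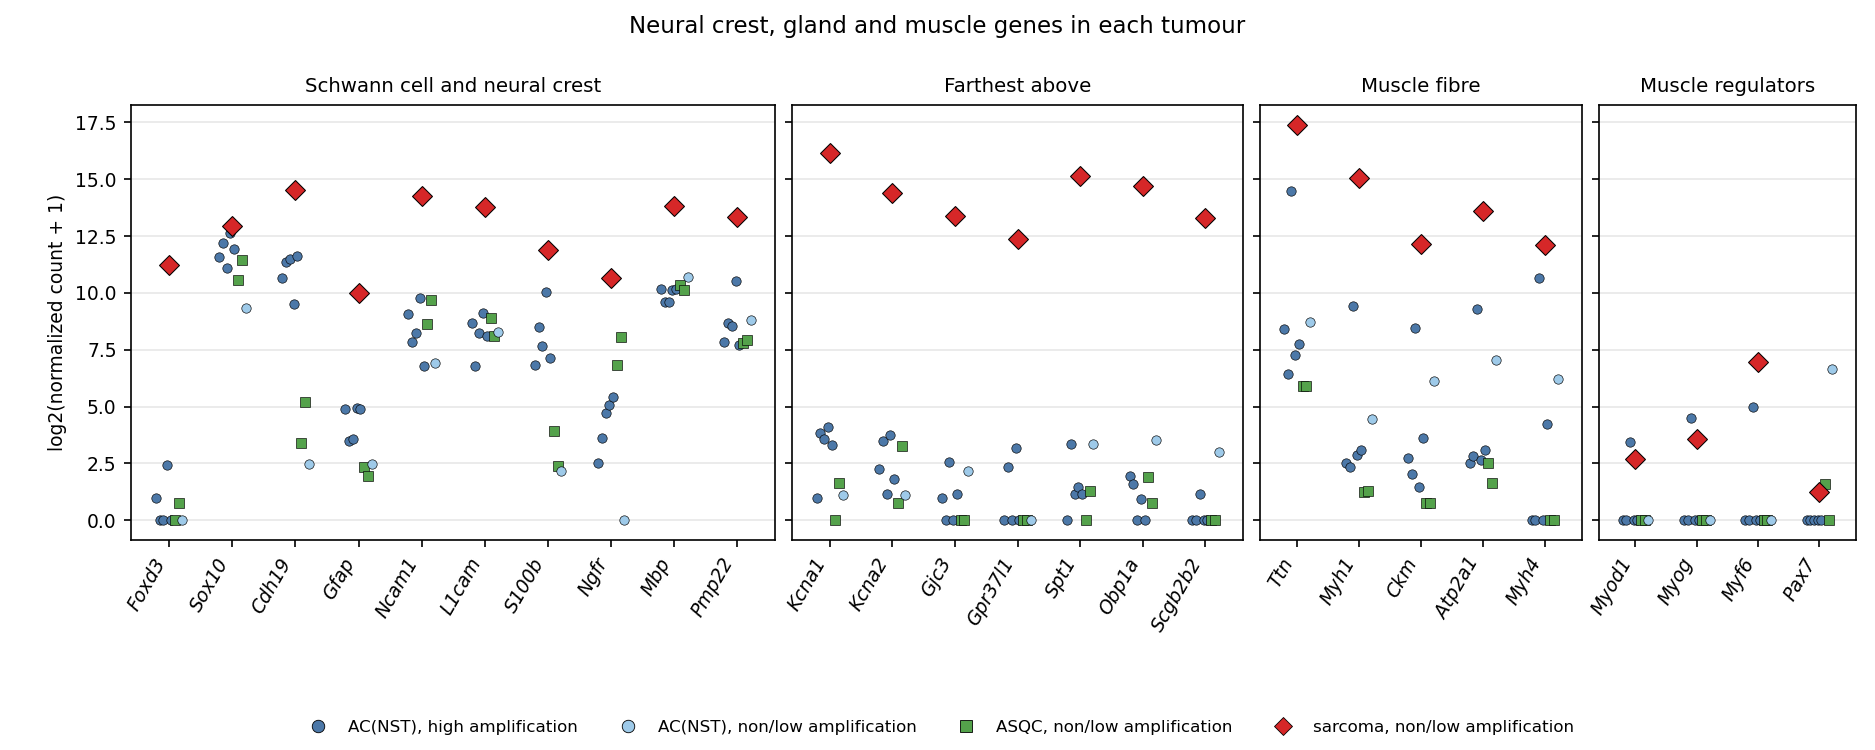
Normalized counts on a log2 scale (1 added; y axis) of neural crest genes, of genes among those farthest above, and of muscle genes (x axis), one point per tumour with the sarcoma as a red diamond. Foxd3, Kcna1 and Spt1 are low in all epithelial tumours and above 11 on this scale in the sarcoma, MS1163.2 is the second highest tumour for the muscle fibre genes, and Myod1 and Myog are low in all tumours.

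Other cell types gave no such separation. The list medians of the sarcoma were -0.44 for endothelial genes, -0.77 for macrophage genes, -1.02 for pan-leukocyte and neutrophil genes, -1.20 for adipocyte genes and -0.38 for smooth muscle genes, each inside the range of the epithelial tumours. Against the 3 parous, non/low-amplified tumours alone the adipocyte median was on the other side, at 0.98. By list sum the sarcoma was slightly below all epithelial tumours for macrophage genes (11894 normalized counts against a minimum of 12568). The same held for adipocyte genes (2061 against 2117). The endothelial, pan-leukocyte and smooth muscle sums were inside the epithelial range. Lymphocyte genes were lower, with a list median of -2.37 against -2.06 to 1.33 and 4 of 13 genes below, but their sum in the sarcoma (73.5 normalized counts) was inside the epithelial range of 29.0 to 329. The whole list summed to only 29.0 in MS1166.1, so calls in this list can rest on very few counts. Cd3d was less than 2-fold below with factors within classes of exon length (-0.84 on the log2 scale). In the cartilage and bone list 3 of 14 genes were above and 2 were below. Sox6 had 7622 normalized counts against a maximum of 902. Spp1, which encodes osteopontin, had 191 in the sarcoma and 17773 to 99173 in the epithelial tumours, 93.2-fold below the lowest. The cartilage gene Acan (5.45 normalized counts) and the bone factor Sp7 (8.17) were inside the epithelial range.

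Transcription factors that pattern the limb and trunk mesenchyme were another group on the high side. Of 31 measured, 15 were above and none was below by 2-fold, with a list median of 3.13 (epithelial tumours -0.67 to 1.19). Meox2 had 2732 normalized counts against 6.96 to 110.4, and Tbx4 had 290.1 against 0 to 3.56. Ebf2 had 2339.9 against a maximum of 354, Tbx2 had 1143 against 146 and Alx4 had 617 against 57.1. Tbx5, Pitx1, Wt1 and Foxf2 were inside the epithelial range, so the list was not raised throughout. The Hox genes were on the low side, with a list median of -2.14 (epithelial tumours -1.07 to 2.00). Of 24 Hox genes past the filter 1 was above (Hoxd4, 40.9 normalized counts against 18.2, less than 2-fold when scaled by total counts) and 4 were below, and 21 were below the epithelial median. The list sums were 212 in the sarcoma and 183 to 993 in the epithelial tumours.

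The driver locus was next examined. Counts for Erbb2 (ENSMUSG00000062312, chr11:98412470-98437716) are reads aligned to the mouse gene and can include reads of the rat NeuNT transcript. The sarcoma had 1149.5 normalized counts of Erbb2 (interval 1073 to 1229.8). The 3 epithelial tumours with non/low amplification had 1494 (MS1166.1), 1892 (MS1349.1) and 2704 (MS1210.1). The high-amplified tumours had 5120 (MS1163.1), 6535 (MS1163.2), 14672 (MS1218.2), 50684 (MS1213.1) and 102485 (MS1155.3). The sarcoma was therefore the lowest of the 9 tumours but only 1.30-fold below the next, which did not meet the 2-fold rule. Of the genes that neighbour Erbb2, Grb7, an adaptor of receptor signalling, was below at 16.3 normalized counts against 344 to 11958. Mien1 had 357 against 364 to 46511, and Stard3 had 1762 against 565 to 26370.2, inside the range. Of 21 genes of the ErbB list, 2 (9.52%) were above, close to the share among all genes, and 4 (19.05%) were below. Erbb3, the kinase-impaired partner of ERBB2, was above, with 28100.3 normalized counts against 3073 to 9489 (median 6391), or 2.96-fold. The other gene above was Tcap, a sarcomere protein gene beside the locus, at 353 against 88.6. Of the 7 ligands of EGFR in the list, 3 were below: Tgfa had 28.6 normalized counts against 409 to 1350.07, Btc had 12.3 against 64.1 to 296, and Areg had no count against 3.48 to 189. The Areg call was within counting error, as the 95% interval for no count in the sarcoma reached 5.02 normalized counts. Egf, Ereg and Epgn were inside the range, and Hbegf was above by less than 2-fold. Egfr itself (5042 normalized counts) was inside the range.

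Among the other growth factor receptors and ligands, 6 of 33 genes (18.2%) were above and 3 (9.09%) were below, beside 9.65% and 6.96% of all genes, so that the share below was near that of all genes. Igf1 had 6356 normalized counts against a maximum of 1152, Pdgfa had 3515 against 1032, Hgf had 599 against 174, and Fgf2 had 1051 against 399.6. Ephb2, an ephrin receptor, had 3442 against 199, or 17.3-fold. Ddr2, a collagen receptor, was the sixth gene above (not with factors within classes of exon length), so that 4 of the 6 encode ligands. The receptor genes Met and Kit were below, with 121 and 415 normalized counts against minima of 1517 and 4048, as was the ligand gene Pdgfc. In the Hedgehog and Notch list 7 of 21 genes were above and 1 was below, although the list median was 0. The Hedgehog genes made up most of these. Gli1 (ENSMUSG00000025407, chr10:127329882-127341974), a transcription factor that is itself a target of the pathway, had 1178 normalized counts against 7.54 to 64.7 (median 14.5), or 18.2-fold. Gli2 had 902 against 35.2 to 89.3, Gli3 had 2137 against 86.7 to 524, and the receptor gene Ptch1 had 3338 against a maximum of 1479. Hhip, a target gene that encodes a Hedgehog-binding protein, had 121 against 6.07. All 5 of these were outside the epithelial range, although Ptch1 was less than 2-fold above when scaled by total counts (0.94 on the log2 scale), whereas the transducer Smo (1999 normalized counts) was inside it. Of the ligands, Shh had no count in the sarcoma, and Dhh, the ligand of Schwann cells, had 531 normalized counts, 1.14-fold above MS1163.1 (465) and far above the next tumour (61.6). Of the Notch genes Heyl was above (3289 against 481) and Hey2 was below, and the receptors Notch2, Notch3 and Notch4 were below by less than 2-fold.

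In the Wnt list 5 of 33 genes (15.2%) were above and 5 were below. Wnt4 had 715 normalized counts against a maximum of 119, Wnt6 had 504 against 122, and the receptor gene Fzd1 had 8354 against 2781. Fzd4 and Ror2 were also above, but by less than 2-fold with TMM scaling. Wnt7b, a ligand of luminal cells, had no count in the sarcoma and 151 to 1365 normalized counts in the epithelial tumours, so it was at least 36.9-fold lower. Wnt5b, Wnt10b, Sfrp2 and Lgr5 were below too. Axin2, a target of canonical Wnt signalling, had 572 normalized counts, inside a range of 41.7 to 5112 that the 2 highest epithelial tumours (4218 and 5112) set. The list thus held as many genes below as above. Of 23 TGF-beta and BMP genes, 3 were above (13.0%; Tgfbi, Bmp4 and Id3) and 4 were below (Tgfb3, Ltbp2, Id2 and Gdf6). Id2, an inhibitor of basic helix-loop-helix factors, had 154 normalized counts against a minimum of 1140.5.

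**Figure D4:**
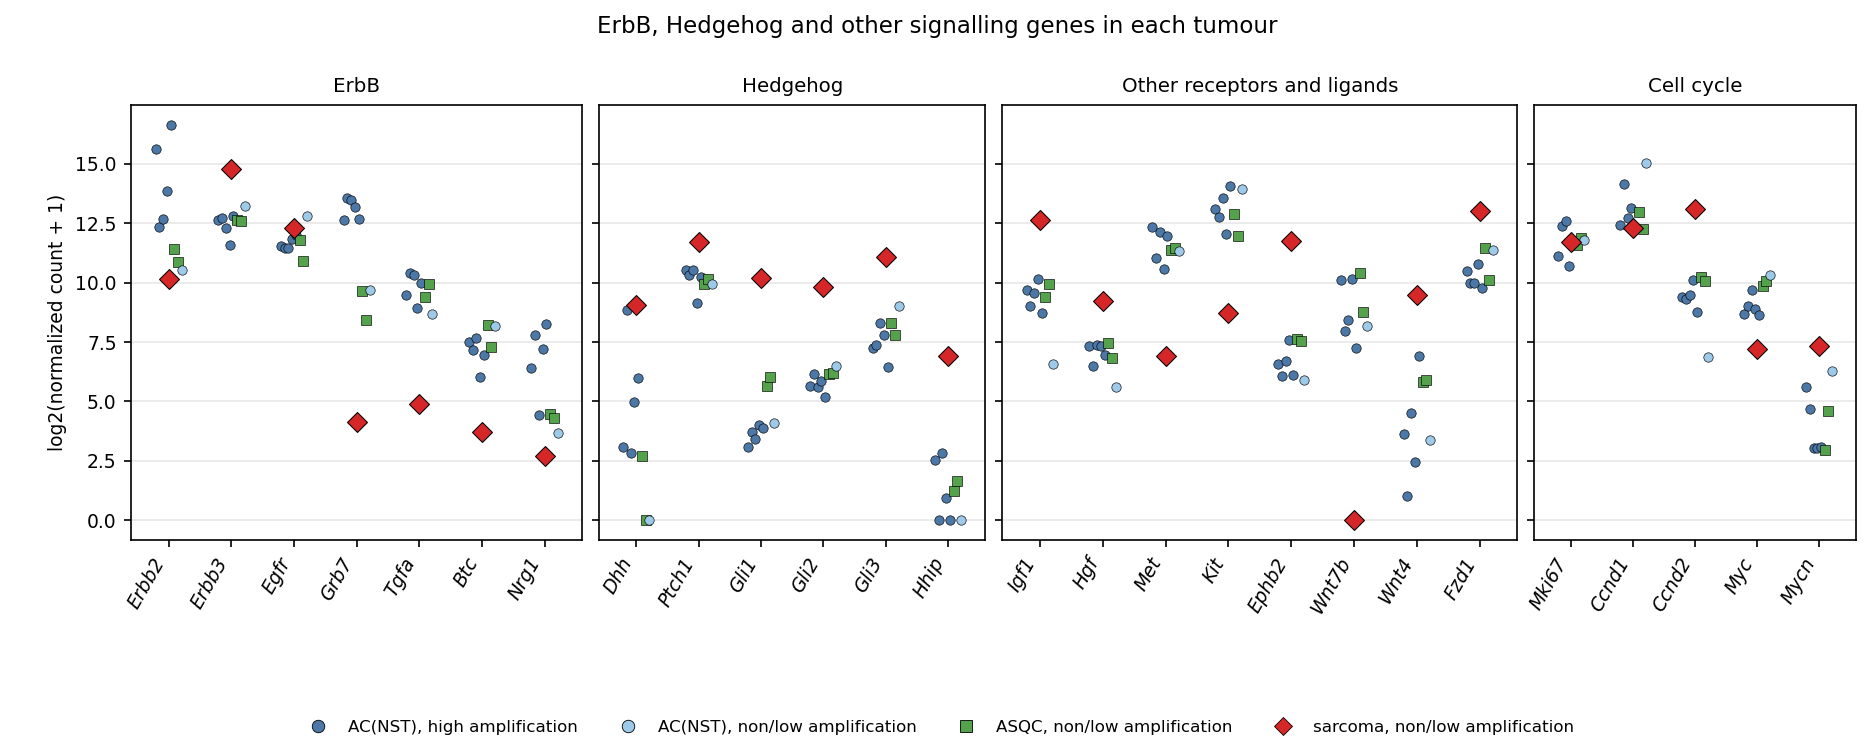
Normalized counts on a log2 scale (1 added; y axis) of ErbB, Hedgehog and other signalling genes and cell cycle genes (x axis), one point per tumour with the sarcoma as a red diamond. The sarcoma is the lowest tumour for Erbb2 and the highest for Erbb3, it lies above all epithelial tumours for Gli1, Gli2, Gli3, Ptch1 and Hhip, and Mki67, Egfr and Ccnd1 lie inside the epithelial range.

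Few proliferation genes placed the sarcoma outside the epithelial tumours. Of 30 cell cycle genes none was above and 2 (6.67%, near the 6.96% of all genes), the replication helicase genes Mcm2 and Mcm6, were below. The list was nevertheless on the low side, with a median of -0.86 inside that of the epithelial tumours (-1.39 to 1.33) and 28 of 30 genes below the epithelial median. Against the 3 parous, non/low-amplified tumours 13 of 30 were below, beside 15.9% of all genes. Mki67, with 3334 normalized counts against an epithelial median of 3399, was nearer the median than most. The regulators of G1 showed 2 genes above, since Ccnd2 had 8843 normalized counts against 117 to 1198 and Mycn had 159 against 6.83 to 76.5 (less than 2-fold with TMM scaling). Ccnd1 (5027) was inside the range. Myc was below, with 146 against a minimum of 400. In the remaining lists at most 2 genes were called in either direction. None of 15 Hippo and YAP target genes was above and 1 was below, a share near the 6.96% of all genes. Of 14 fetal and imprinted genes 2 were above and 2 below, larger shares than the 9.65% and 6.96% of all genes. None of 16 fatty acid synthesis genes was above and 2 were below, a larger share below than among all genes. The tumour suppressor genes Nf1, Rb1 and Cdkn1b were inside the range, and Trp53 was 1.01-fold below the lowest tumour.

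Genes of hypoxia and glycolysis were on the low side. Of 21 hypoxia and glycolysis genes, 10 were below and none was above, with a list median of -2.47 (epithelial tumours -1.60 to 0.51). Egln3, an oxygen-sensing hydroxylase that is induced by hypoxia, had 83.1 normalized counts against 1219 to 9205, and Pfkl, a phosphofructokinase, had 414 against 5239.9 to 17858. Slc2a1, the glucose transporter GLUT1, had 289 against 934 to 9765, and Ldha had 2766 against 9332 to 28608. Slc2a3, Eno2 and P4ha1 were instead above by less than 2-fold. Of 14 genes of MHC and antigen presentation 1 (7.14%, near the 6.96% of all genes) was below, H2-K1, with 795 normalized counts against 1813 to 14305, and all 14 were below the epithelial median. The median of this list was -2.18, just below that of every epithelial tumour (-2.08 to 0.57). Its sum was 7825 normalized counts in the sarcoma against 11369 to 76744. Of 19 interferon-stimulated genes 4 were below (Mx1, Irf7, Ifi44 and, except with factors within classes of exon length, Oas1a), but the list median of -2.87 was inside the range of the epithelial tumours, since that of MS1163.2 was -3.32.

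The 20 genes farthest below the epithelial range were Gabrp, Tfap2c, Lcn2, Ckmt1, Mapk13, Slc28a3, Igsf5, Crabp2, Krt7, Ripk4, Ildr1, Il17re, Macc1, Nrtn, Lama1, Atp6v1b1, Urah, Acox2, Elf5 and Prr15l. Gabrp, a GABA receptor subunit gene of breast epithelium, had no count in the sarcoma and 942 to 3523 normalized counts in the epithelial tumours, at least 231-fold lower. Lcn2, a secreted lipocalin, had 57.2 normalized counts against 21608 to 169053, a difference of 378-fold. Of these 20 genes 10 had no count in the sarcoma, among them Mapk13 and Lama1, a laminin chain. Ildr1, a protein of tricellular tight junctions, and Krt7 joined the junction and keratin genes described above.

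**Figure D5:**
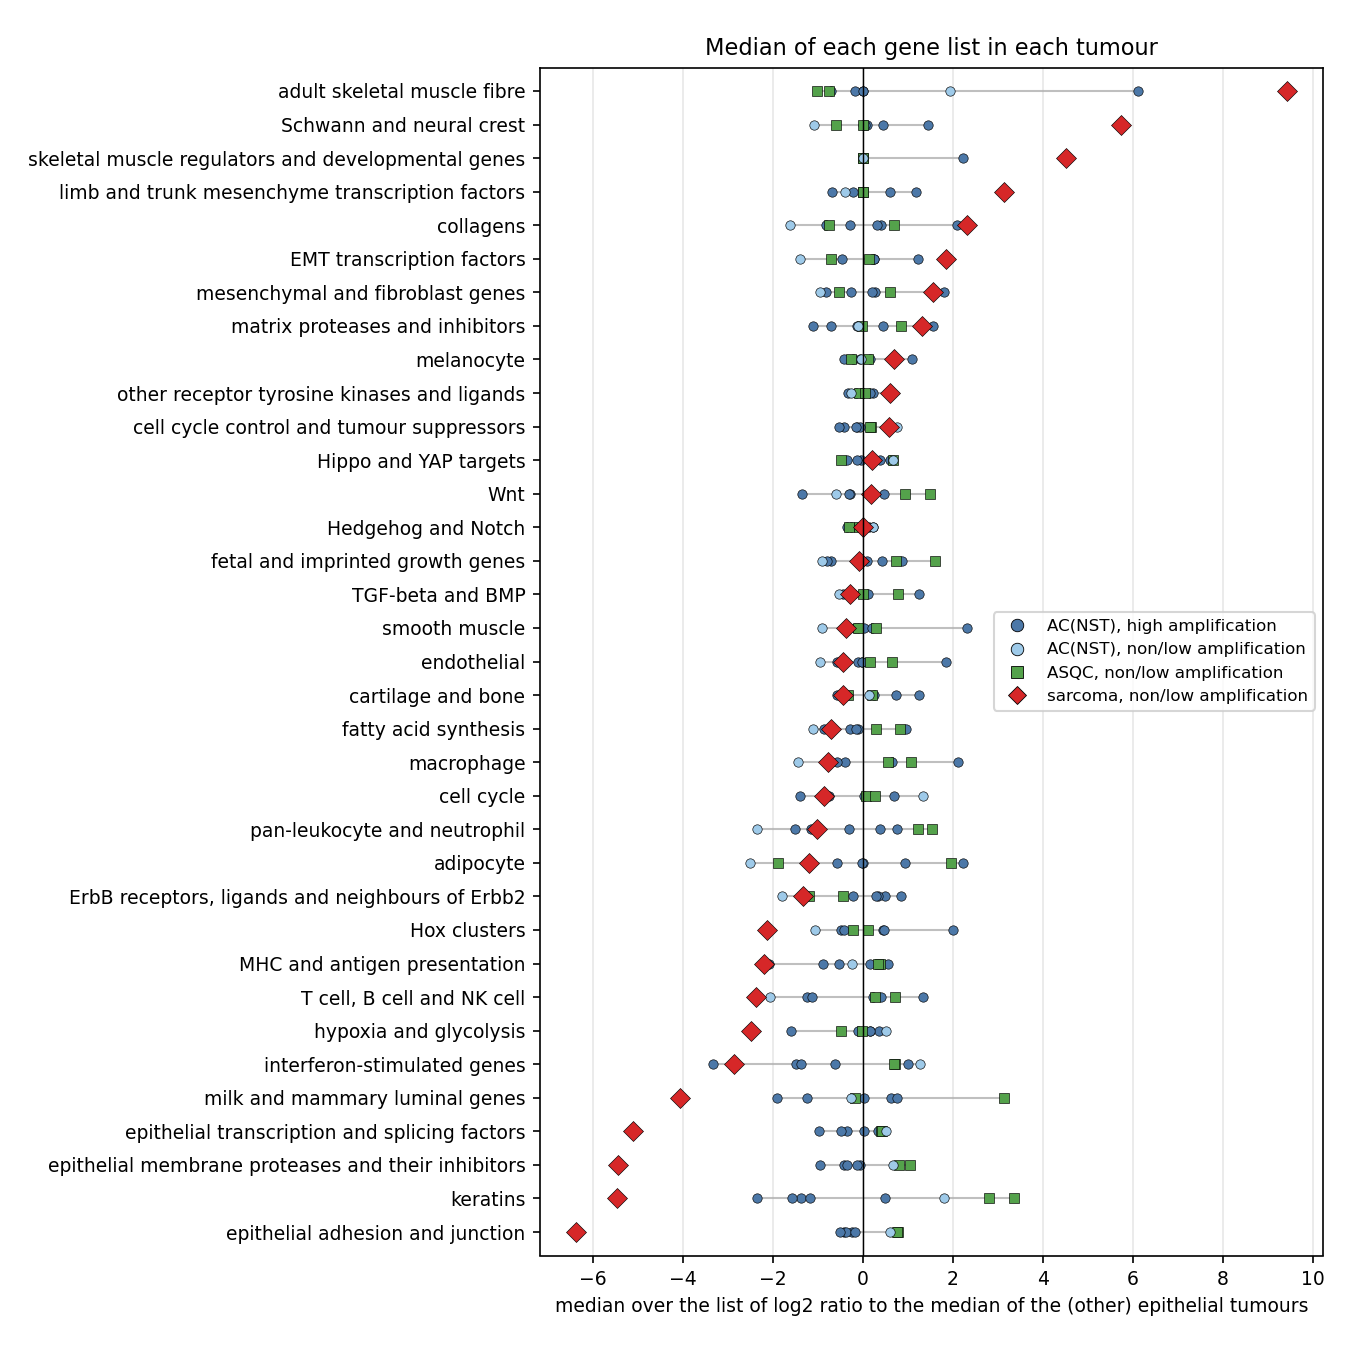
Median over each gene list (rows) of the log2 ratio of a tumour to the median of the epithelial tumours (x axis), where each epithelial tumour is set against the other epithelial tumours and the sarcoma is the red diamond. The sarcoma is farthest to the right for muscle fibre (9.43) and Schwann and neural crest genes (5.74) and farthest to the left for epithelial junction genes (-6.38), and it lies within the epithelial tumours for most stromal and immune lists.

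Gene length moved with these values. Genes with a mean of at least 50 normalized counts were put in 5 classes. Here each gene was set against its median over all 9 tumours, the sarcoma included. In the class with the shortest exon length (375 to 2653 bases) the sarcoma's median log2 ratio was -0.42, with 4.82% of genes above and 10.1% below. In the class with the longest exon length (7874 to 123179 bases) it was 0.22, with 12.7% above and 4.30% below. Both medians were just outside those of the epithelial tumours (-0.31 to 0.55 and -0.42 to 0.20). With size factors computed within 5 such classes of all genes, 1362 of the 1501 genes above and 1004 of the 1082 below were still called. Restricted to the 3 epithelial tumours that shared its parity and amplification labels, the sarcoma was above for 2941 genes (18.9%) and below for 2473 (15.9%). The 1501 and 1082 genes are by construction among these.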

How the data were processed

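RNA from 9 snap-frozen tumours was depleted of ribosomal RNA, and strand-specific libraries were sequenced as paired reads. The authors aligned unique reads to mouse build 38 with StarAlign and counted reads per gene with HTSeq-count on an Ensembl annotation; the deposited values used here are raw counts per gene, 18484 genes per tumour. Alignment was run as unstranded and the strand setting of the counting was not given in the sources used here, so overlapping, antisense and near-identical genes are uncertain. FastQC, Cufflinks and DESeq2 are also named in the submitters' processing notes. A second set of deposited values, scaled by the authors for the 8 epithelial tumours, was not used.

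Size factors by the median of ratios were taken over the 9 tumours together (0.734 for the sarcoma) and used to scale the counts. A gene entered where 1 or more tumours reached 10 counts. The sarcoma was compared with the range of the 8 epithelial tumours at 2-fold with 1 added, without a test; a floor of 3 counts was used for values of 0. The rule was tested on simulated data. Genes were named where they belonged to 1 of 35 gene lists, or were among the 20 farthest beyond the range in each direction with at least 100 normalized counts on the higher side (genes below: in the lowest epithelial tumour). 4 further lists and any other named gene were chosen after values were seen. The tumour, the rule and the lists were chosen with earlier results of these data known. Positions are from GENCODE M21 (GRCm38), and promoters from RefSeq. DESeq2 1.42.0 and edgeR 4.0.16 (TMM) gave size factors in R 4.3.3, and Python 3.11.15 the rest. Alternatives changed the scaling, the filter, the added count, the fold, the epithelial tumours and the depth. No column of another sample was present. Some genes are not reported here.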

Additional observations from a re-analysis of the deposited data

Results flagged for a closer look

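In 19 of 53 results looked at, 1 of the 6 AC(NST) tumours lay apart from the other 5: its gap to the nearest of them, as a part of the whole range, was above the 95% critical value of Dixon's ratio. Chance alone does this in about 1 in 20 groups of normally distributed values. The values looked at were not log-transformed and belong largely to genes named in the text. The 19 of 53 thus cannot be set against that rate. All 19 values that lay apart are normalized counts, and in each the tumour that lay apart was the highest. They set the upper edge of the range against which the sarcoma was compared for several of the genes above.

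MS1218.2 lay apart for 9 genes. It had 31328 for Vim, 118117 for Col3a1, 45912 for Col4a1 and 32618 for Sparc, all mesenchymal or matrix genes. Of the Schwann cell genes it had 4.45 for Foxd3, 1053 for S100b and 176 for Lgi4. It also had 169053 for Lcn2 and 17858.5 for Pfkl.

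MS1166.1 lay apart for 6 genes, of which 5 were epithelial: 15292 for Epcam, 15240 for Cdh1, 8218 for Krt7, 36530.1 for Krt8 and 30953 for Krt18. The other was Obp1a, with 10.4. MS1163.2 lay apart for 3 muscle genes, with 23096 for Ttn, 352 for Ckm and 689 for Myh1. MS1163.1 lay apart for 1, Dhh, with 465.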

How the results depend on the processing

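Counts of genes above and below the epithelial range, 1501 and 1082, moved by over 1.5 times under 4 alternatives. A mean of at least 50 normalized counts left 943 genes above. At 4-fold there were 834 above and 571 below, and at any distance outside the range 3606 and 2923. Against the 3 parous, non/low-amplified tumours there were 2941 and 2473. With 1 epithelial tumour left out there were 1536 to 1731 above and 1106 to 1265 below. In all 39 of 46 counts stayed within 1.5 times. Among these were 1022 above and 1058 below where at least 3 of the 8 epithelial tumours had to reach 10 counts. The filter, the fold and the number of tumours by their construction admit fewer or more genes. TMM scaling kept 1406 genes above and 1082 below, upper-quartile scaling 1425 and 1077, and scaling by total counts 1351 and 1082. The median log2 ratio of all genes moved to -0.05, -0.02 and -0.12, and the share above among genes outside the range from 58.1% to 55.6%, 56.1% and 52.8%. With 10 added to each count 1396 above and 809 below were kept, and thinned to 12501225 counts 1462 and 1012.

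Of 655 list genes, 110 were above and 126 were below. TMM scaling, like scaling by total counts, kept 102 above, and no list gene turned. Factors within classes of exon length kept 97 above and 121 below. With 10 added to each count 106 above and 103 below were kept, and at 4-fold 65 and 87. Of 420 list medians 411 moved by less than the spread, and of 624 gene ratios 592 did. No paired analysis was possible because no group test was made with 1 sarcoma. Depth limits the genes below: for a count of 0 in the sarcoma the 95% interval reaches 5.02 normalized counts, and fold bounds used a floor of 3 counts (4.09), for counting error only.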

Other observations

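Genes of the protocadherin beta cluster, cell surface adhesion molecules known from neurons, were looked at after their values were seen. Of 21 past the filter, 14 were above all epithelial tumours and none was below, beside 9.65% of all genes, and the list median was 2.36 (epithelial tumours -1.22 to 1.13). The cluster summed to 11329 normalized counts in the sarcoma against 1320 (MS1166.1) to 4589 (MS1163.2) in the epithelial tumours. Pcdhb10 had 699 against a maximum of 45.4 and Pcdhb6 had 858 against 63.1, whereas Pcdhb17 (610.2) was inside the range. These genes lie in one array and are similar in sequence, which makes the count of each uncertain.

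By chromosome, each gene was set against its median over all 9 tumours, the sarcoma included. The sarcoma's median log2 ratio lay between -0.18 (chromosome 19) and 0.05, over 12442 genes on 20 chromosomes. It was inside the range of the epithelial tumours on 15 of them. Windows of 25 neighbouring genes were instead set against the median of the epithelial tumours. There the sarcoma ran from -1.37 to 2.17, and the epithelial tumours, each against the other epithelial tumours, ran from -2.47 to 2.86.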
